A study of Zea mays with 14 samples.

Results

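RCP1 (gene ID GRMZM2G097316) is 1 of the 39305 maize gene IDs counted in 14 messenger RNA libraries, and it was chosen by that ID, as a possible sign of root cap material, from its levels in these same libraries. The libraries came from seedlings aged 3 days and fall into 7 groups of 2. The tissue set holds B73 root hair, B73 root and B73 aerial seedling, all wild type. The zmlrl5 set holds W22 wild type root hair, W22 zmlrl5 root hair, B73 wild type root and B73 zmlrl5 root. B73 and W22 are inbred maize lines. The labels call zmlrl5 a knock down in the W22 hairs and a knock out in the B73 roots, while no source used here names the alleles. Hairs were scraped off frozen roots. In the zmlrl5 set the wild type roots are titled as scraped and the zmlrl5 roots are not. The growth text names B73 for all samples, against the cultivar label W22 of the zmlrl5 set's hairs, so line was taken from the cultivar label. All root hair libraries of the zmlrl5 set are labelled W22 and all its root libraries B73, so that tissue and line cannot be told apart within it.

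The root cap is the sheath of cells over the growing tip of a root. Its central cells, the columella, hold starch grains whose settling senses gravity. Its outer cells secrete mucilage and are shed as border cells, with new cells supplied by divisions in the meristem behind them. Root hairs are outgrowths of epidermal cells further up, so a sample of pure hairs would hold no cap. RCP1 is known in maize as a gene of the outer root cap. Of 8 root cap symbols looked for, RCP1 and a further root cap gene, RCP2 (GRMZM2G146502), were found, and no other cap gene was available to check what RCP1 stands for.

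Libraries held 12336633 to 27788359 reads assigned to genes. Levels are given as CPM, in which each count is divided by the size of its library, with TMM factors of all 14 libraries, a scaling that sets the bulk of genes equal between libraries. A floor of 3 counts equals 0.108 to 0.243 CPM of the library total before that scaling. The hair libraries have TMM factors far from those of the root libraries. With library totals alone, the median gene of B73 root hair against B73 root moved by -1.11 on the log2 scale, that of W22 wild type root hair against B73 wild type root by -0.75, and that of W22 against B73 root hair by 0.22. Levels between hair and root therefore depend on the scaling, and plain CPM is given beside them. No source used here says that libraries sharing a group were separate plants or cultures. The p-values below therefore reflect library-to-library spread alone, which may be technical.

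RCP1 was read abundantly in the hair libraries of both sets and in the roots of the tissue set, and was near or under the floor in the other 3 groups. W22 wild type root hair had 99.2 and 106 CPM (1347 and 1927 counts), and B73 root had 86.2 and 81.4 CPM (1671 and 3083 counts). W22 zmlrl5 root hair had 73.2 and 76.2 CPM (1092 and 1031 counts), and B73 root hair had 25.2 and 25.8 CPM (439 and 438 counts). These 4 groups did not overlap on this scale, and the nearest libraries of B73 root and W22 zmlrl5 root hair were at 81.4 and 76.2 CPM. B73 wild type root had 0.465 and 0.377 CPM, from 8 and 9 counts. B73 zmlrl5 root had 0.0729 and 0.0400 CPM, from 2 counts and 1 count. Neither aerial seedling library had a read, which over the group allows up to 0.0758 CPM. In bulk tissue, fewer cells of a type and less RNA per cell cannot be told apart.

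The order of the group means ran from W22 wild type root hair, 102 ± 4.48 CPM (SD, n = 2 in this and every later mean), through B73 root, 83.8 ± 3.44, and W22 zmlrl5 root hair, 74.7 ± 2.08, to B73 root hair, 25.5 ± 0.373. B73 wild type root followed at 0.421 ± 0.0628 CPM and B73 zmlrl5 root at 0.0564 ± 0.0232 CPM. The top of this order depends on the scaling. In plain CPM, B73 root stood first at 115 ± 3.41, above W22 wild type root hair at 77.8 ± 2.64, and W22 zmlrl5 root hair stood at 59.3 ± 3.88 and B73 root hair at 16.4 ± 0.865. The 3 lowest groups kept their places. The 3 counts of B73 zmlrl5 root lie at the floor, so that group and aerial seedling cannot be told apart at this depth. By exact Clopper-Pearson intervals at 95% confidence, which cover counting error only, the 8 and 9 counts of B73 wild type root allow 0.280 to 1.28 and 0.235 to 0.974 plain CPM.

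**Figure D1:**
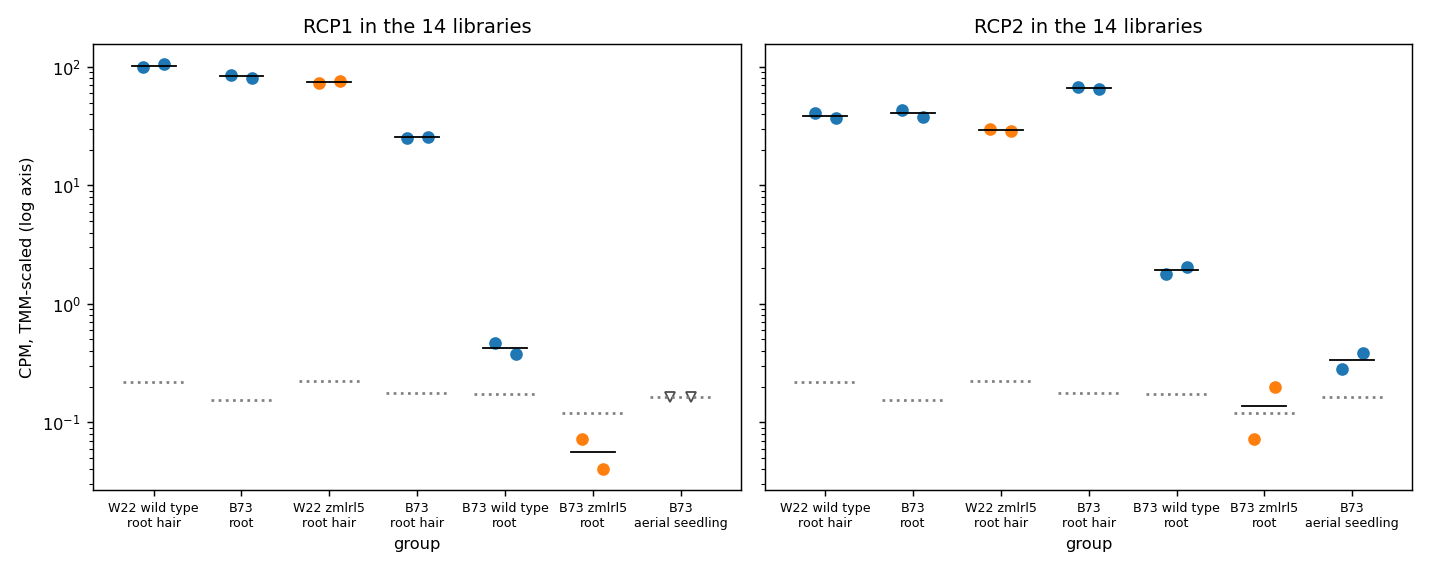
Level of RCP1 and RCP2 in each of the 14 libraries, in TMM-scaled CPM on a log axis, by group. Points are libraries (orange for zmlrl5), black bars are group means, dotted lines are the level of 3 counts in the shallower library of a group, and open triangles mark libraries without a read. RCP1 lies between 25.2 and 106 CPM in 4 groups and under 0.5 CPM in the others, and RCP2 is low in the same 3 groups.

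Within the tissue set, RCP1 was higher in B73 root than in the hairs scraped from B73 roots, and hairs still held much of it. The difference of hair minus root was -1.72 ± 0.063 on the log2 scale (SD), so that root was 3.29-fold higher, and it was -2.82 with plain CPM. It is given without a test, because RCP1 was chosen for its levels across tissues. The median gene had a log2 fold change of -0.14 in the same comparison, and 32.0% of 25551 genes had a lower value than RCP1. Set against aerial seedling, root hair exceeded it by at least 337-fold and root by at least 1106-fold, taking 3 counts over the aerial group as the bound. Without aerial replicate 1 the bounds were 155 and 510, because a floor of 3 counts then weighs on fewer reads.

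Most dividing-cell genes, and most endodermis and stele genes, had lower hair-to-root values than RCP1. The background was high, with 73.1% of all genes tested called by edgeR's quasi-likelihood test (Benjamini-Hochberg adjusted p under 0.05), 34.0% higher and 39.2% lower in hairs. All 12 dividing-cell genes (12 of 12 tested), of DNA replication and histones, were lower in hairs, with a median log2 fold change of -7.05. The replication clamp genes pcna1 and pcna2 differed by -1.41 and -8.56 on the log2 scale of group means, so pcna1 lay above the -1.72 of RCP1, and the histone gene his2b5 fell from 289 CPM in root to 1.04 CPM in hairs. Their summed level was 73.1 to 92.4 CPM in the hair libraries and 1768 to 2277 CPM in the root libraries. RCP1 also lay apart, at 25.2 to 25.8 CPM in hairs and 81.4 to 86.2 CPM in root, with group means that differed by 3.29-fold.

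Of 10 endodermis and stele genes tested, 7 were lower and 2 higher in B73 hairs, with a median of -4.65. CesA12, a cellulose synthase gene of secondary walls, had 176 and 185 CPM in root and 0.920 and 0.706 CPM in hairs. In hairs it had 28 counts in the group, above the floor, where RCP1 had 877. The higher members were laccase genes, LAC1 (GRMZM5G842071) at 82.6 against 21.5 CPM and lac3 at 9.61 against 5.54 CPM, and the direction of lac3 turned with library totals only (-0.30). Laccases are known for polymerising lignin in walls. grp3, a glycine-rich protein gene taken here as a root epidermis gene, had 253 and 296 CPM in root and 0.748 and 0.647 CPM in hairs, a log2 fold change of -8.59 ± 0.34 (SE).

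Root hair genes went the other way. 3 of the 4 roothairless genes were higher in B73 hairs, and 0 were lower, with a median of 4.15. With library totals only, rth1 was called lower. rth3, which encodes a COBRA-like wall protein, had a log2 fold change of 4.21 ± 0.25 and rth6, a cellulose synthase-like gene, 5.33 ± 0.27. rth5, an NADPH oxidase gene, rose by 4.08 ± 0.27. rth1, which encodes an exocyst subunit, differed by 0.26 ± 0.26 and was not called. Starch synthesis genes, relevant to the starch of the columella, had 2 of 9 higher, 4 lower and a median of -0.49. The shares over all genes were 34.0% higher and 39.2% lower. The sucrose synthase gene sh1 had 2850 and 2965 CPM in hairs against 332 and 300 CPM in root, and the debranching enzyme gene zpu1 had a log2 fold change of 2.56 ± 0.30. The ADP-glucose pyrophosphorylase gene agpsl1 had a difference of -5.33. The starch list thus held genes on both sides of 0. Photosynthesis genes, a sign of shoot material, had 12 of 17 higher and 2 lower in hairs, with a median of 2.25, and 8 higher and 4 lower with library totals only. The summed level of that list was lower in hairs, 122 to 127 CPM against 175 to 190 CPM, but only through psat1. This phosphoserine aminotransferase gene entered the list by its name alone and held 106 and 177 of these as group means. The sum of the other members was higher in hairs than in root.

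**Figure D2:**
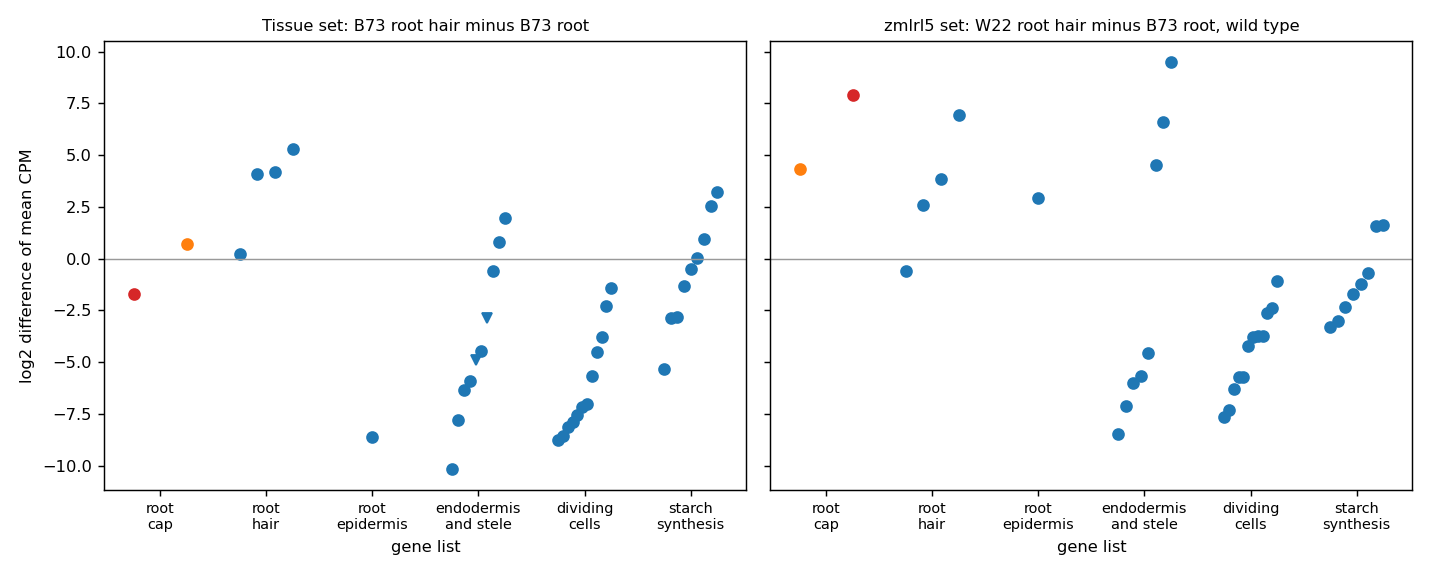
Difference of mean CPM (log2) of root hair minus root for RCP1 (red), RCP2 (orange) and the measured genes of 5 lists (blue), in the tissue set and the zmlrl5 set; triangles are bounds for genes without a read in hairs. Dividing-cell genes lie below 0 in both panels, while RCP1 lies at -1.72 in the first panel and at 7.92 in the second. In the second panel hair is W22 and root is B73.

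RCP2 in the B73 tissues did not move with RCP1. RCP2 had 67.2 and 65.7 CPM in hairs and 43.2 and 38.1 CPM in root, so every hair library lay above both root libraries. Its log2 fold change in hair against root was 0.73 ± 0.23 (edgeR adjusted p = 0.00533). The direction rests on the scaling. With library totals only it was -0.39 (adjusted p = 0.131), with upper-quartile factors 0.40 (adjusted p = 0.113), and without B73 root replicate 2 the adjusted p was 0.0831. Aerial seedling had 0.281 and 0.383 CPM, 6 and 7 counts, so that RCP2, unlike RCP1, was read in every group. RCP2 was higher than in aerial seedling by 7.66 ± 0.36 in root hair and 6.93 ± 0.36 in root, where 79.2% of all genes were called (34.2% higher and 45.0% lower) and 60.6% (28.5% higher and 32.0% lower).

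The number of RCP1 reads per RCP2 read in a library does not depend on its scaling. It was 0.376 and 0.392 in B73 root hair, and 1.996 and 2.14 in B73 root. In the W22 hairs it was 2.43 and 2.85 in wild type and 2.44 and 2.65 in zmlrl5, close to B73 root and above B73 hairs. B73 wild type root had 0.258 and 0.184, from few RCP1 reads. The pair of root cap genes thus stood in different proportions in B73 hairs and B73 roots, whatever scaling was used. Since gene lengths were not used, these ratios compare libraries and do not say which gene had the higher level.

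B73 wild type root was labelled alike in line and genotype in both sets, yet RCP1 was 199-fold lower in the zmlrl5 set than in the tissue set. The log2 difference was -7.64 ± 0.22 (SD), from 83.8 to 0.421 CPM, and 0.498% of 27316 genes had a lower value than RCP1. The median gene had 0.11. Both zmlrl5-set libraries lay far under both tissue-set libraries, and leaving out each of these 4 libraries in turn gave -7.80 to -7.49. The difference carries no test for RCP1. RCP2 fell from 40.6 ± 3.60 to 1.93 ± 0.175 CPM, with a log2 fold change of -4.38 ± 0.22 (edgeR adjusted p = 3.82e-15), in a comparison where 49.5% of all genes were called, 27.4% higher and 22.1% lower.

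Dividing-cell and stele genes had smaller differences between these roots than RCP1. Of 12 dividing-cell genes, 10 were lower in the zmlrl5 set's wild type root, where 22.1% of all genes were lower. Their median was -0.94, and their summed level was 930 to 951 CPM against 1768 to 2277 CPM. Histone gene his2b5 fell by 1.47 on the log2 scale and his2a1 by 1.10, while MCM7, a subunit of the replicative helicase, differed by 0.06. Of 10 endodermis and stele genes, 4 were lower and 1 higher, against 22.1% and 27.4% of all genes, with a median of -0.31. Among its laccase genes, lac4 (GRMZM2G072780) was at 0.163 against 2.36 CPM and lac4 (GRMZM2G164467) at 0.158 against 2.56 CPM, differences of -3.86 and -4.01 on the log2 scale of group means. CesA12 had 140 and 150 CPM against 176 and 185 CPM, a log2 fold change of -0.32 ± 0.17 that was not called (adjusted p = 0.124). CesA12 thus had nearly the same level in both B73 root groups, although the libraries did not overlap.

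grp3 differed most among the listed genes, with 0 and 0.377 CPM in the zmlrl5 set's wild type root and 253 and 296 CPM in the tissue set's, a log2 fold change of -10.26 ± 0.34 (edgeR adjusted p = 1.18e-18). lac3 fell by 2.96 ± 0.29 on that scale. Of the 4 root hair genes, 1 was lower and 0 were higher, with a median of -0.26. That gene was rth6, at 1.86 and 2.68 CPM against 9.55 and 11.1 CPM. Starch synthesis genes had 3 higher and 2 lower of 9, where 27.4% of all genes were higher and 22.1% lower. Among them ae1, a starch branching enzyme gene, was higher by 2.66 ± 0.31. Photosynthesis genes had 5 higher and 4 lower of 17, with a median of 0.37, and 3 to 4 were higher when a library was left out. The starch synthesis and photosynthesis counts were thus near the shares over all genes. Of these B73 root groups, only that of the zmlrl5 set is titled as scraped. Scraping as titled, how much of the root tip was taken, the library set and plant growth cannot be told apart here. Their part in the RCP1 difference was not tested.

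**Figure D3:**
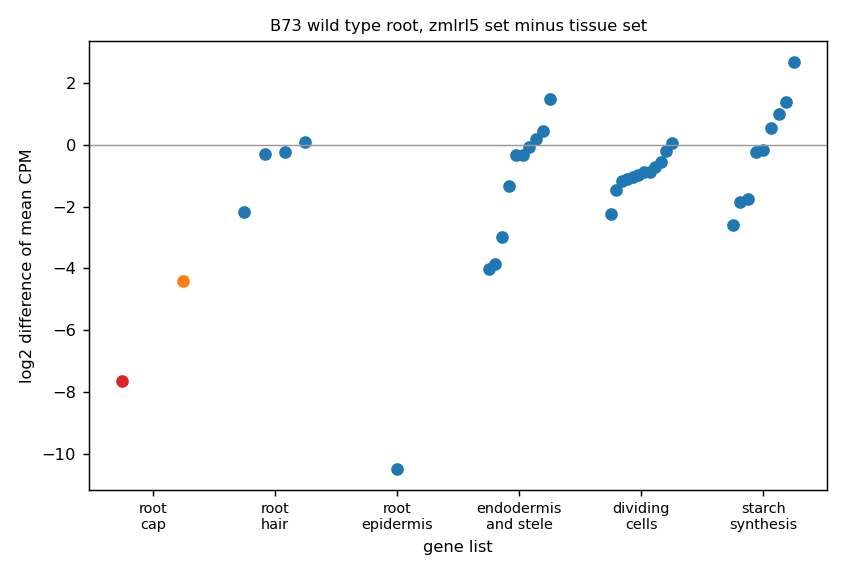
Difference of mean CPM (log2) of B73 wild type root in the zmlrl5 set minus B73 root in the tissue set, for RCP1 (red), RCP2 (orange) and the measured genes of 5 lists (blue). RCP1 at -7.64 and grp3, the root epidermis gene, lie farthest down, while 11 of 12 dividing-cell genes lie between -2.23 and 0.

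With so little RCP1 in B73 wild type root of the zmlrl5 set, W22 wild type root hair stood 243-fold above it. The log2 difference was 7.92 ± 0.22 (7.07 with plain CPM), and 1.17% of 25303 genes had a higher value, where the median gene had -0.23. In the tissue set RCP1 was instead lower in hair than in root, but there both are B73 and the root is not titled as scraped. RCP2 was higher as well, by 4.21 ± 0.18 (edgeR adjusted p = 1.75e-19), in a comparison with 80.5% of genes called, 36.5% higher and 44.0% lower. All 12 dividing-cell genes were lower in the W22 hairs, with a median of -4.09, and CesA12 was at 1.04 against 145 CPM. The endodermis and stele list was split, with 5 of 8 lower and 3 higher and a median of -5.16. The higher members were laccase genes, lac3 by 6.46 ± 0.19, LAC1 (GRMZM5G842071) by 4.39 ± 0.096, and LAC1 (GRMZM2G400390), at 807 against 1.11 CPM. CesA12 and all 12 dividing-cell genes were thus lower in hair than in root in both sets, while LAC1 (GRMZM5G842071) was higher in both. Lower did not mean absent. The histone gene his2a1 had 47.6 CPM in B73 hair and 59.2 CPM in W22 wild type hair, where RCP1 had 25.5 and 102 CPM. RCP1 differed by 199-fold between the B73 roots and by 4.01-fold between the hairs.

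Between the wild type hairs, RCP1 was 4.01-fold higher in W22 than in B73, where the log2 difference had an SD of 0.067 and was 2.25 with plain CPM. Every W22 library exceeded every B73 library, and 19.8% of 27316 genes had a higher value than RCP1. RCP2 went the other way, from 66.4 ± 1.10 CPM in B73 to 38.9 ± 2.71 CPM in W22, a log2 fold change of -0.77 ± 0.17 (edgeR adjusted p = 0.000375). In that comparison 54.0% of all genes were called, 28.1% higher and 25.9% lower. The 4 root hair genes were all lower in W22 hairs, with a median of -0.81, though 2 were called with library totals only, and 2 without B73 root hair replicate 1 or without W22 wild type root hair replicate 1. Dividing-cell genes had 4 higher and 1 lower of 12 (1 higher and 0 lower without W22 wild type root hair replicate 2, and 0 lower without B73 root hair replicate 1), and their summed level was 96.1 to 104 CPM against 73.1 to 92.4 CPM. Line and library set cannot be told apart in this comparison.

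The zmlrl5 contrasts of RCP1 are given as a description, with no p, because the gene was chosen from its levels in all 7 groups, those of the zmlrl5 set included. In W22 root hair RCP1 was at 73.2 and 76.2 CPM in zmlrl5 against 99.2 and 106 CPM in wild type. The fitted log2 fold change was -0.41 ± 0.10 (SE). RCP2 had 30.0 and 28.7 CPM against 40.8 and 37.0 CPM, a log2 fold change of -0.36 ± 0.14 that was not called (edgeR quasi-likelihood, Benjamini-Hochberg adjusted p = 0.0547). RCP2 was found by its symbol, in a list drawn up with earlier results of these data known. Its p-values are therefore not fully free of that choice. In this comparison 22.5% of 25303 genes were called, 10.1% higher and 12.4% lower.

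In B73 root RCP1 had few reads in either genotype. The zmlrl5 libraries had 2 counts and 1 count, and the wild type libraries 8 and 9 counts. All 4 lie under the minimum count of 10 in the filter, which RCP1 passed through the W22 hairs. The ratio of wild type to zmlrl5 was 7.23, and the fitted log2 fold change was -2.74 ± 0.67. Both values rest on these few reads and carry no test. RCP2 had 2 and 5 counts against 31 and 49 counts, a log2 fold change of -3.82 ± 0.41 (edgeR adjusted p = 4.12e-08), where 8.36% of genes were called, 4.27% higher and 4.09% lower. The wild type roots are titled as scraped and the zmlrl5 roots are not. Genotype and scraping as titled therefore cannot be told apart in any zmlrl5 contrast of B73 root.

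The difference between the zmlrl5 effects, B73 root minus W22 root hair, was -3.46 ± 0.45 for RCP2 (edgeR interaction contrast, adjusted p = 1.03e-06), with 14.6% of genes called, 8.11% higher and 6.52% lower. The fitted value for RCP1 was -2.33 ± 0.68, from the low counts above. Tissue, line and the kind of mutant all differ between the 2 effects, as does the scraping named in the titles. The zmlrl5 gene was not identified by name among the counted IDs, so its own level did not check the labels.

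The listed genes differed from each other in these contrasts. In zmlrl5 root hair, against 12.4% of all genes lower and 10.1% higher, 1 of 12 dividing-cell genes was lower and 0 were higher (median -0.18). Without W22 wild type root hair replicate 2 the number lower was 0, without its replicate 1 it was 2, and without W22 zmlrl5 root hair replicate 1 it was 3. 3 of 8 endodermis and stele genes were lower (median -0.75) and 3 of 8 starch synthesis genes were lower (median -0.43), and no member of either list was higher. lac3 fell by 1.15 ± 0.12 on the log2 scale and sh1 by 1.21 ± 0.069. The lower genes of the stele list included laccase genes that were abundant in hairs. lac3 had 29.6 against 67.7 CPM and LAC1 (GRMZM5G842071) 315 against 391 CPM, and LAC1 (GRMZM2G400390) stood at 338 against 807 CPM. CesA12 and lac5, at 0.805 and 0.101 CPM in the zmlrl5 hairs, were not called. Photosynthesis genes had 7 of 13 higher and 0 lower, but 0 were higher without W22 zmlrl5 root hair replicate 2, 2 without W22 wild type root hair replicate 2 and 11 without W22 zmlrl5 root hair replicate 1. Cab-m7, a chlorophyll-binding protein gene, had 6.84 and 18.0 CPM in the zmlrl5 hair libraries, and its log2 fold change moved from 1.14 to 0.26 without replicate 2. In zmlrl5 root, against 4.09% of all genes lower and 4.27% higher, 1 of 12 dividing-cell genes was lower, and 0 were lower when any 1 of the 4 root libraries was left out. The stele list had 2 higher and 2 lower of 8, with lac3 lower by 1.87 ± 0.46 and CesA12 higher by 0.33 ± 0.082. None was higher without B73 wild type root replicate 1 or B73 zmlrl5 root replicate 1, 0 were lower without B73 wild type root replicate 2 and 1 without either zmlrl5 root library. lac3 was called under 9 of 11 alternatives and CesA12 under 7 of 11. Photosynthesis genes had 6 of 13 higher and 0 lower in zmlrl5 root (4 to 5 higher when a library was left out), and Cab-m7 had 7.29 against 0.171 CPM.

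Among the root hair genes, rth6 was lower in zmlrl5 in both tissues and the other 3 were not called. In root hair rth6 fell by 0.71 ± 0.10 on the log2 scale. In root its 96 wild type counts, 32 and 64 by library, stood against 0 counts in zmlrl5, a difference of at least 5.31 on the log2 scale against 3 counts. Scraping as titled differs along with genotype in that root contrast, and its part was not tested.

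**Figure D4:**
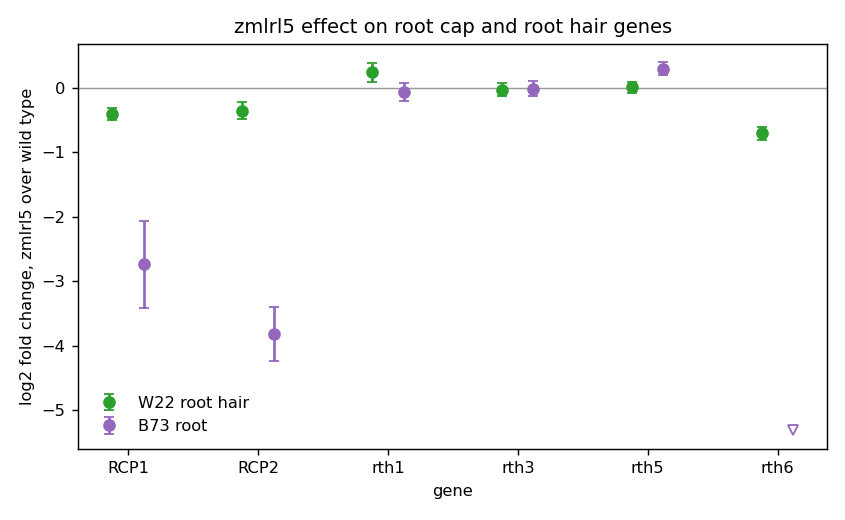
log2 fold change of zmlrl5 over wild type in W22 root hair (green) and B73 root (purple), with standard errors, for RCP1, RCP2 and the 4 roothairless genes. The open triangle marks the bound of rth6 in root, which had no read in zmlrl5. RCP1 lies at -0.41 in root hair and -2.74 in root, while rth1, rth3 and rth5 lie near 0 in both.

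The genes whose pattern over the 7 groups was most like that of RCP1 were found by the root mean square (RMS) difference of group mean log2 CPM, each gene centred on its own mean, among 27315 genes. The 7 group means come from 14 libraries that share scaling and depth, and the list was chosen on these values, so it carries no test. The nearest was GRMZM2G097340 (RMS 0.750), followed by GRMZM2G025205 (1.10), GRMZM2G053493 (1.24), GRMZM2G164064 (1.26), GRMZM2G028010 and GRMZM2G066202 (1.27 each). GRMZM2G040364 (1.41), GRMZM2G107211 (1.42), RCP2 (1.45) and GRMZM2G089856 (1.51) completed the first 10, and these were also the first 10 with plain CPM and with library values. RCP2 was thus ranked 9 by its pattern alone. Of the others, GRMZM2G164064, GRMZM2G066202 and GRMZM2G089856 had a unique match among the RefSeq names and the rest did not. No description of any of them was used.

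GRMZM2G097340 had 37.6 ± 1.23 CPM in B73 root, 13.9 ± 2.90 in B73 root hair and 52.3 ± 3.86 in W22 wild type root hair. It had 9 counts in B73 wild type root and 0 in both B73 zmlrl5 root and aerial seedling. It followed RCP1 in being lower in B73 hair than in B73 root, but stood at 11.8 ± 1.28 CPM in W22 zmlrl5 root hair, where RCP1 kept 74.7 CPM. GRMZM2G028010 had 276 ± 7.28 CPM in B73 root hair against 84.1 ± 5.67 in B73 root, the opposite order, and had 137 ± 0.145 CPM in W22 wild type hairs and 437 ± 37.3 CPM in zmlrl5 hairs. GRMZM2G053493 was like RCP1 in B73, with 28.5 ± 8.97 CPM in root and 4.44 ± 1.96 in hair. What the 10 shared was a group mean of at most 2.26 CPM in aerial seedling and in both zmlrl5-set root groups, while their order among hairs and B73 root varied.

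**Figure D5:**
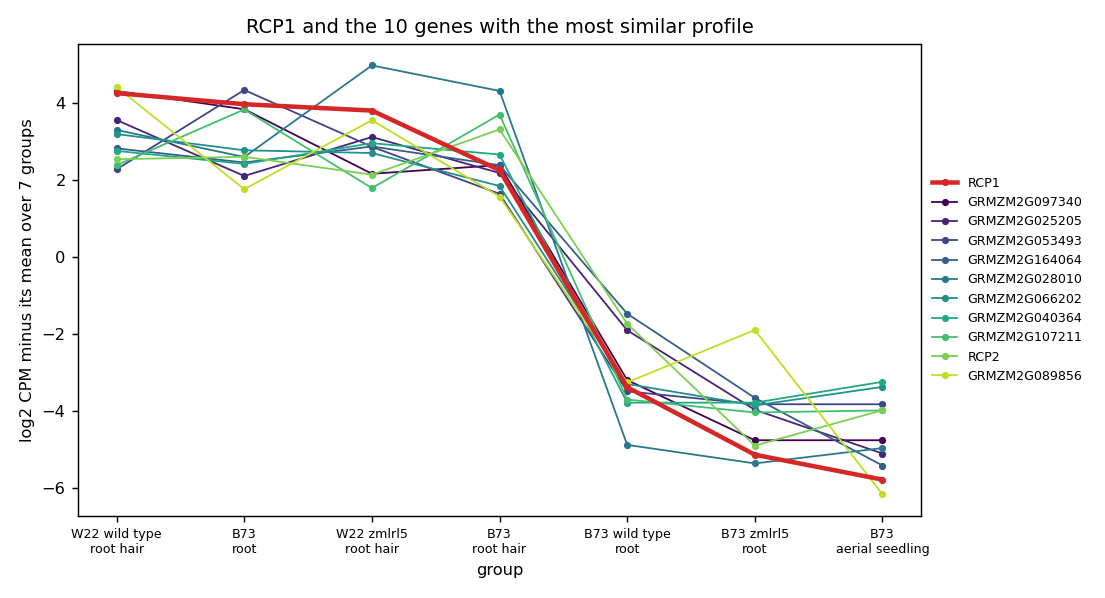
Group mean log2 CPM minus the gene's mean over the 7 groups, for RCP1 (red) and the 10 genes with the smallest RMS difference from it; groups are ordered by the level of RCP1. All 11 lines drop between B73 root hair and B73 wild type root and stay low in aerial seedling.

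Listed genes were mostly unlike RCP1. rth6 ranked 148 of 27315 in likeness, lac3 437, rth5 602 and grp3 1298. Dividing-cell genes ranked from 13252 (pcna1) to 26977 (pcna2), and CesA12 ranked 26827. rth3 and rth1 ranked 2048 and 8938, and the laccase gene LAC1 (GRMZM5G842071) ranked 5599.

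The genes next to RCP1 in the RefSeq gene order, among those with a uniquely matched counted ID, differed from it in pattern. Over both sides together, 2 RefSeq genes without such an ID were passed over. Counted IDs without a unique match, GRMZM2G097340 among them, could not be placed in this order. GRMZM2G097258, named IPT as are cytokinin-synthesising isopentenyl transferases, had 2.22 and 2.80 CPM in B73 root and 15.3 and 12.8 CPM in B73 wild type root of the zmlrl5 set, a log2 fold change of 2.46 ± 0.29. It ranked 25156 in likeness. GRMZM2G061305 had 24.8 ± 4.46 CPM in B73 root, 1.37 ± 0.146 in B73 hair, 1.07 ± 0.213 in B73 wild type root and no read in aerial seedling. It fell by 4.54 ± 0.30 on the log2 scale between the B73 roots and ranked 635, but its 3.33 ± 0.019 CPM in W22 wild type hair stayed far under its level in B73 root, unlike RCP1.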

How the data were processed

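Messenger RNA of 14 maize libraries was analysed from the authors' deposited raw counts of reads per gene, whole numbers for 39305 IDs, of which 2779 had no read. The submitters' processing notes list DESeq, HTSeq and TopHat2 without versions. Genome build and strand setting are in no source used here, so reads of overlapping, antisense or near-identical genes cannot be told apart. HTSeq's entries for reads outside genes (3.58% to 6.71%) and ambiguous reads (1.91% to 2.58%), present in the tissue set, were left out.

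edgeR 4.0.16 under R 4.3.3 tested the counts (filterByExpr with minimum count 10 and minimum total 15, TMM, glmQLFit and glmQLFTest, two-sided, group means), adjusted by Benjamini-Hochberg over all genes tested and called under 0.05. The tissue set (6 libraries, 25551 genes) and the zmlrl5 set (8 libraries, 25303 genes) were fitted apart, and comparisons across sets used all 14 libraries (27316 genes). Alternatives were DESeq2 1.42.0, other scalings, no filter, a replicate block, a fit of all libraries and leaving out each library. The fits were tested on simulated data. Replicate libraries differed by more than sampling noise. RefSeq names (Zm-B73-REFERENCE-NAM-5.0) matched 18996 IDs, 521 of them more than once. Proteins and promoters were not analysed here.

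RCP1 and the gene lists were chosen with earlier results of these data known, so the tests planned for RCP1 are given as fitted values without p. Named genes are RCP1, the 10 nearest profiles (log2 CPM, prior count 2), its neighbours, all members of lists of up to 6 genes and the 4 highest of longer ones; pcna1, pcna2, MCM7, agpsl1, both lac4 genes and LAC1 (GRMZM2G400390) were named after their values were seen.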

Additional observations from a re-analysis of the deposited data

Results flagged for a closer look

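For RCP2, the zmlrl5 effect in B73 root minus that in W22 root hair was -3.46 on the log2 scale (edgeR adjusted p = 1.03e-06), from -3.82 and -0.36, so the effect differed between the tissues by a test of the difference itself. It was called under all 15 alternatives. For RCP1 the same contrast was fitted at -2.33, from -2.74 in root and -0.41 in root hair. That value is a description without a p, because RCP1 was chosen from its levels in these libraries and had 17 and 3 counts in the wild type and zmlrl5 roots, each library under the filter's minimum count of 10. Line, kind of mutant and scraping as titled differ along with tissue and cannot be told apart.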

How the results depend on the processing

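With plain CPM, the RCP1 log2 difference was -2.82 for B73 hair minus root, 7.07 for W22 wild type hair minus B73 wild type root and 2.25 for W22 minus B73 hair, and W22 wild type hair minus B73 root turned to -0.57. Hair minus root was -1.95 with DESeq2 size factors and -1.99 with upper-quartile factors. The folds over aerial seedling, at least 337 for hair and 1106 for root, became 210 and 1482 with plain CPM, 305 and 1175 with size factors, and 325 and 1288 with upper-quartile factors; leaving out a library gave 155 to 340 and 510 to 1138. Leaving out a library gave fitted values of -0.50 to -0.41 for RCP1 in zmlrl5 against wild type root hair, -3.19 to -2.42 in root and -2.78 to -2.00 for their difference. The all-library fit gave -0.45 in root hair, and DESeq2 -2.46 for the difference. The all-library fit also called 3233 genes in place of 5703 in zmlrl5 root hair and 955 in place of 2115 in zmlrl5 root, where leaving out a library left 1133 to 1437. With library totals only, a scaling chosen after seeing the data, RCP2 (-0.39) and lac3 (-0.30) turned in hair against root, and the share of higher calls went from 46.4% to 20.9% there, 43.2% to 30.1% in hair against aerial seedling, 47.1% to 62.2% in root against aerial seedling, 45.3% to 28.3% in W22 hair against B73 wild type root and 52.1% to 62.4% in W22 against B73 hair. The causes were not tested.

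Deviations of same-numbered libraries had correlations of -0.17 to 0.03 between groups. Each group gave only its difference between replicates, so these values cannot settle whether same-numbered libraries were paired. With a replicate block the RCP1 values were -0.41 in root hair, -2.73 in root and -2.32 for their difference, and 5152 and 1792 genes were called in zmlrl5 root hair and root. Depth limits RCP1 in the zmlrl5 set's roots, where its 17 and 3 counts lie near the floor.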
